A study of Homo sapiens with 12 samples.

Results

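YAP1, WWTR1 (the gene of TAZ) and 8 of their established target genes were followed in 4 cell lines made from HMLE, a line of immortalised human mammary epithelial cells. The 10 genes were taken by name and not by measured values, out of 61533 gene entries, and all 10 passed the filter on low counts that left 15616 genes for testing. The 4 lines expressed HORMAD1 and CT83 together (the double line), HORMAD1 alone, CT83 alone, or a control construct, and all of them, control included, had gone through puromycin selection. HORMAD1 acts on chromosome axes in meiosis, and CT83 is a cancer/testis antigen. The design asked what each of these germ-line genes does in mammary cells and if the pair cooperates. There were 3 polyadenylated RNA libraries per line, 12 in all. As each construct is represented by a single line, transgene effects and line differences cannot be told apart. Nothing in the labels says that replicates came from separate cultures, and the p-values therefore measure the spread among these libraries alone, which could be technical.

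YAP and TAZ are transcriptional co-activators that bind DNA through TEAD factors. The kinases LATS1 and LATS2, driven by the Hippo kinases, phosphorylate them and keep them out of the nucleus, and cell density, stretch and contact with the matrix act through this step. Because YAP and TAZ are controlled mainly through their location and stability, the mRNA of their targets is widely read as a measure of their activity. CCN1 and CCN2 encode secreted matricellular proteins, ANKRD1 a muscle ankyrin repeat protein, F3 tissue factor, AXL a receptor tyrosine kinase and NUAK2 a kinase of the AMPK family. AMOTL2 and LATS2 encode inhibitors of YAP that are also its targets, and so form negative feedback.

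The libraries held 9898845 to 14159740 counts. Both transgenes followed the labels, in normalised CPM (counts scaled to library size). HORMAD1 averaged 314 CPM in the double line against 290 CPM in its own line, CT83 averaged 101.9 CPM in the double line against 523.4 CPM in its own line, and both had 0 counts in the lines without them. All 7 mammary epithelial markers (EPCAM, CDH1, KRT5, KRT14, KRT8, KRT18 and TP63) had counts in every library, and their summed level was 6271 to 8107 CPM. The 8 fibroblast markers summed to 37.0 to 87.38 CPM in the double line, 25.84 to 45.99 in the HORMAD1 line, 27.6 to 43.8 in the CT83 line and 39.69 to 91.68 in control, and their part in the results was not tested. Most of that sum came from FAP, at 17.06 to 22.54 CPM over the 12 libraries, and COL1A1, at 12.42 to 60.5 CPM in the double line, 5.4 to 23.06 in the HORMAD1 line, 8.83 to 23.6 in the CT83 line and 14.77 to 43.39 in control. COL1A2 reached 18.87 CPM in control, COL3A1 6.57 and MFAP5 2.696 CPM, and DCN, LUM and PDGFRA lay at 0 to 1.41, 0 to 1.31 and 0 to 0.201 CPM. Leukocyte and endothelial markers each summed to under 2 CPM. In bulk RNA, fewer cells of a type and less RNA per cell cannot be told apart.

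TEAD factors bind the letters GGAATG, or CATTCC when read on the other strand, and the promoters of the classic targets are known for carrying them close to the start site. In RefSeq promoter windows (GRCh38.p14, 250 bases before to 50 after a start) 9 of the 10 genes had an entry, in 12 windows, and 7 genes had these letters in 7 windows. Among all 35116 windows of that length, 14.03% held at least 1 match, 1.37% at least 2 and 0.128% at least 3. CCN2 had 3 matches, 169, 104 and 95 bases before its start, and ANKRD1 and NUAK2 had 2 each. The 250 bases before the start of these genes are shown because they carry the most matches, written 5′ to 3′ on the strand of the gene, with the matches in capitals. CCN2 lies at chr6:131951373-131951622, ANKRD1 at chr10:90921088-90921337 and NUAK2 at chr1:205321746-205321995, all on the minus strand.
CCN2: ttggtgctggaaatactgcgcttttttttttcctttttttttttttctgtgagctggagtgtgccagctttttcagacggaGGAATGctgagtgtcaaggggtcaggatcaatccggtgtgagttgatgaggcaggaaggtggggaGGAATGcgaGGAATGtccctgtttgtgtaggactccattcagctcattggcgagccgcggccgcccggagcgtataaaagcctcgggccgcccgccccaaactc
ANKRD1: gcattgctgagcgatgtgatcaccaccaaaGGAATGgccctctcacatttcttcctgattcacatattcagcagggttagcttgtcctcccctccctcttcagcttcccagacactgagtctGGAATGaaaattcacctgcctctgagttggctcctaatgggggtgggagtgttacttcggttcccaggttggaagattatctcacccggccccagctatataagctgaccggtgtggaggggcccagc
NUAK2: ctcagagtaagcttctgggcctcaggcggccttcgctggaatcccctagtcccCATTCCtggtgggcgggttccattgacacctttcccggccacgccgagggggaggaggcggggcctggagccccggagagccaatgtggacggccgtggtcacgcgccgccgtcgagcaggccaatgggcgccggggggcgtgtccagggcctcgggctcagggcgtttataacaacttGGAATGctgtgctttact
The AP-1 letters TGAGTCA, or TGACTCA on the other strand, were found only in the window of F3 among those of the 9 genes, and in 4.95% of all windows. A match is a description of the letters and not a binding site in these cells.

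Per transcript length, F3 was the most abundant of the 10 genes, with a mean of 451.4 TPM (a length-normalised share, scaled over the genes tested) in the 12 libraries. CCN1 followed at 182.3 TPM, YAP1 at 113.5, AXL at 99.71, CCN2 at 43.76, AMOTL2 at 42.73 and WWTR1 at 38.46 TPM. LATS2 (8.89 TPM), NUAK2 (4.42 TPM) and ANKRD1 (2.55 TPM) were much lower. ANKRD1 rested on few reads.

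For the co-activators themselves, line means on the log2 scale spanned 0.222 for YAP1 and 0.078 for WWTR1. The median span over all genes tested was 0.234. YAP1 (chromosome 11, 102110461 to 102233423, plus strand, GRCh38) had 242.6, 240.6 and 305.5 CPM in the double line, 283.8, 342.1 and 291.4 in the HORMAD1 line, 261.6, 254.4 and 281.7 in the CT83 line and 289.4, 282.3 and 280.9 in control. The double line overlapped every other line, while all 3 HORMAD1 libraries lay above all 3 CT83 libraries, as for 4.2% of all genes. The fitted log2 fold change of YAP1 was -0.22 (SE 0.0997) in the double line against the HORMAD1 line, with an adjusted p of 0.653 by the quasi-likelihood test of edgeR. WWTR1 (chromosome 3, 149517235 to 149736714, minus strand) was the steadiest of the 10 genes, at 87.31 ± 2.01 CPM in the double line, 88.59 ± 5.77 in the HORMAD1 line, 86.48 ± 5.37 in the CT83 line and 91.18 ± 1.98 in control (SD, n = 3 each). Its spread within lines, an SD of 0.0691 on the log2 scale, was smaller than that of nearly all genes tested (percentile 3.31). A gene antisense to YAP1 and 1 antisense to WWTR1 averaged 81.0 and 16.6 CPM, and 1 antisense to AXL averaged 18.6 CPM. The use of strand in counting is not given in the sources used here, so reads of these pairs cannot be told apart.

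**Figure D1:**
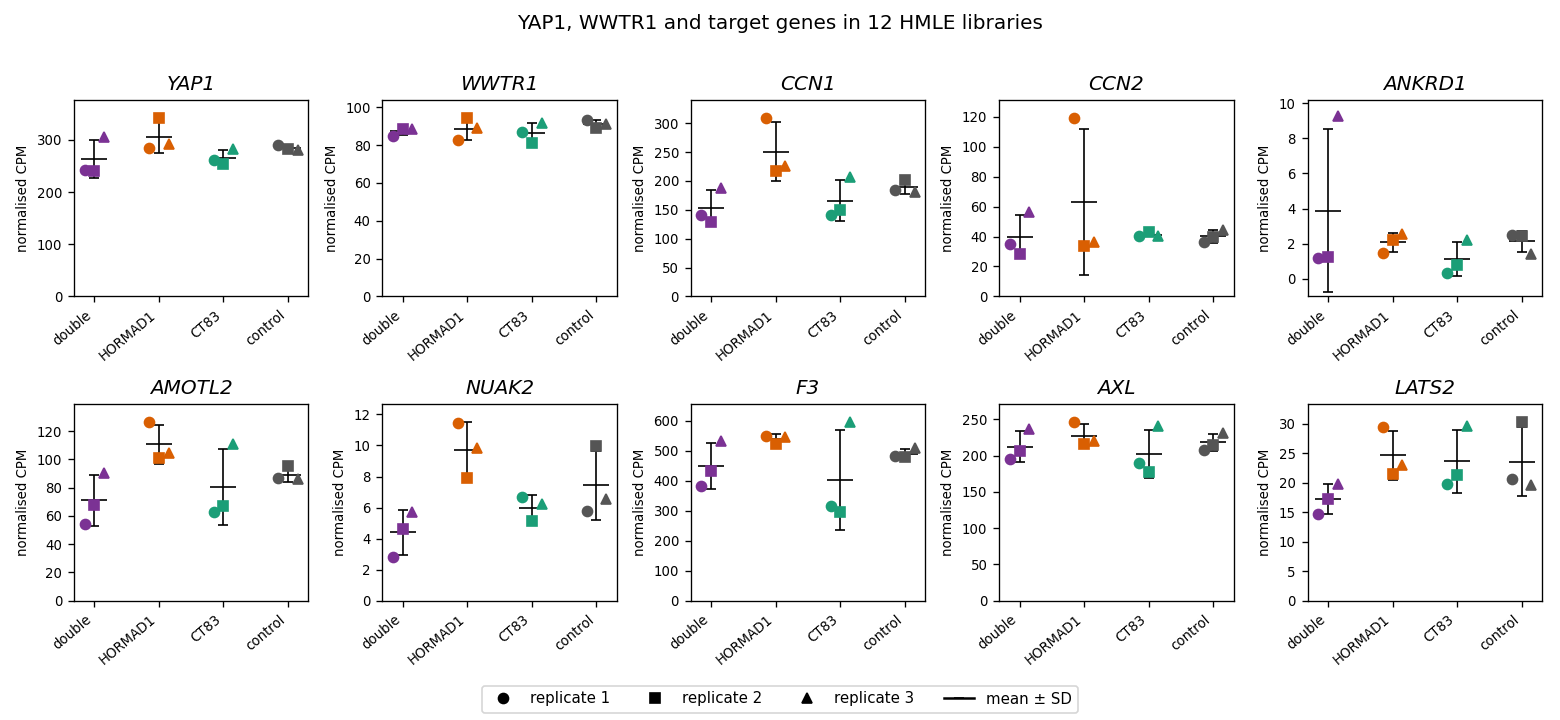
Normalised CPM (y axis, linear) of the 10 genes in the 4 lines (x axis). Each symbol is 1 library, and the black bar and whiskers give the mean ± SD of 3. The HORMAD1 libraries of CCN1 lie at 217.1 to 309.4 CPM, above the double line at 129.7 to 188.3 CPM, and single libraries stand far above their line for CCN2 (HORMAD1 replicate 1) and ANKRD1 (double replicate 3).

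None of the 10 genes passed an adjusted p under 0.05 (Benjamini-Hochberg over all genes tested) in any of 8 tests: the 6 comparisons between lines, the interaction, which asks whether the double line departs from the sum of the single-line changes on the log2 scale, and the test of any difference among the 4 lines. Calls were also rare among all genes, at 0.0448% in the double line against the HORMAD1 line, 0.0256% in the double line against control, 0.0128% in the HORMAD1 line against the CT83 line, 0.0064% in each of the other 3 comparisons, 0.0448% for any difference and 0.0% for the interaction. In the interaction, 703 genes (4.5%) had an unadjusted p under 0.05 in edgeR, and DESeq2 called 3 and limma-voom 0. At an unadjusted p under 0.05, edgeR found 5 of the 10 genes in the double line against HORMAD1 (7.59% of all genes), 2 in the double line against control (5.56%), 1 in the double line against CT83 (8.05%), 2 in HORMAD1 against CT83 (4.64%), 1 in HORMAD1 against control (1.82%), 0 in CT83 against control (2.74%), 1 for the interaction and 2 for any difference (4.83%). Single libraries moved these counts. For the double line against control the count was 0 without double replicate 1 (3.03% of all genes there) or control replicate 2 (2.54%). It was 1 without double replicate 2 (5.7%) and 5 without double replicate 3 (5.38%). That for HORMAD1 against CT83 was 1 without CT83 replicate 2 (3.18%), 6 without CT83 replicate 3 (6.86%) and 4 without double replicate 3 (4.56%). Without CT83 replicate 3 there were 3 in CT83 against control (6.56%) and 6 for any difference (6.79%). The count for any difference was 4 without double replicate 3 (4.23%) and 1 without HORMAD1 replicate 1 (13.5%). With 1 library left out, the counts were 1 to 2 in the double line against CT83 (4.21% to 15.1% of all genes). They were 0 to 1 in HORMAD1 against control (1.22% to 5.4%) and 0 to 3 for the interaction (2.37% to 7.8%). Directions changed too. The 1 gene in the double line against CT83 was lower in the main fit. Without CT83 replicate 3 the 2 genes found were higher, as was the 1 found without double replicate 1 or double replicate 2. For the interaction, the 1 gene was below 0 in the main fit and above 0 without CT83 replicate 3. By adjusted p, limma-voom called 0 of the 10 in every test, and DESeq2 called 2 in the double line against HORMAD1 and 0 in the others. The values that follow are therefore levels and differences that did not pass the main test.

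By counts at unadjusted p under 0.05 or without overlap, the main fit separated the 10 genes most between the double and HORMAD1 lines. By median log2 fold change it was HORMAD1 against CT83, at 0.444. Not every setting kept the ranking by counts at that p. DESeq2 found 4 in the double line against HORMAD1 (6.32% of all genes) and 4 in HORMAD1 against CT83 (3.46%). In edgeR these counts were 4 and 4 with an offset for transcript length (6.65% and 4.76%). They were 6 and 6 without CT83 replicate 3 (9.14% and 6.86%), and 3 and 3 without HORMAD1 replicate 1 (9.06% and 19.1%). Without double replicate 1 they were 2 (4.36%) and 3 (4.27%). Without control replicate 2, CT83 replicate 3 and HORMAD1 replicate 1 they were 5 (13.1%) and 6 (22.1%). Between the double and HORMAD1 lines, 9 of the 10 fitted log2 fold changes were below 0 in the main fit. The median of the 10 was -0.391, against -0.00938 over all genes tested. The 5 genes with an unadjusted p under 0.05 were all lower in the double line: NUAK2, CCN1, AMOTL2, LATS2 and YAP1; 4.14% of all genes met that rule in that direction. That count was 2 without double replicate 1 (4.36% of all genes in either direction) and 3 without HORMAD1 replicate 1 (9.06%). The 3 double libraries lay below all 3 HORMAD1 libraries for NUAK2, CCN1, AMOTL2 and LATS2, as they did for 5.91% of all genes.

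CCN1 (chromosome 1, 85580761 to 85583962, plus strand) had 140.2, 129.7 and 188.3 CPM in the double line and 309.4, 217.1 and 225.2 CPM in the HORMAD1 line. Its log2 fold change was -0.72 (SE 0.181), with an edgeR adjusted p of 0.277. NUAK2 (chromosome 1, 205302059 to 205321791, minus strand) had 2.84, 4.65 and 5.74 CPM in the double line and 11.46, 7.91 and 9.83 CPM in the HORMAD1 line. No library of one line reached the other, and the log2 fold change was -1.15 (SE 0.259), with an edgeR adjusted p of 0.157, the smallest of any of the 10 genes in this comparison. DESeq2 called both, CCN1 with an adjusted p of 0.0191 and NUAK2 with 0.0206, where it called 0.397% of all genes. With no filter on low counts, edgeR called NUAK2, where it called 0.351% of all genes, and NUAK2 was also the 1 gene of the 10 called for any difference among the lines (0.209% of all genes).

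The feedback inhibitors lay in the same direction. AMOTL2 (chromosome 3, 134355874 to 134375479, minus strand) had 54.57, 67.69 and 90.5 CPM in the double line and 126.4, 100.9 and 104.3 CPM in the HORMAD1 line, a log2 fold change of -0.64 (SE 0.229, edgeR adjusted p = 0.530). LATS2 (chromosome 13, 20973032 to 21061547, minus strand) had 14.64, 17.19 and 19.83 CPM in the double line and 29.4, 21.5 and 22.91 CPM in the HORMAD1 line, a log2 fold change of -0.52 (SE 0.199, edgeR adjusted p = 0.537). For both, the highest double library stood under the lowest HORMAD1 library. The surface proteins overlapped between these lines, AXL (chromosome 19, 41219203 to 41261766, plus strand) at 212.5 ± 21.9 CPM in the double line and 227.7 ± 16.3 in the HORMAD1 line, and F3 (chromosome 1, 94529225 to 94541800, minus strand) at 449.6 ± 76.7 CPM in the double line and 539.2 ± 15.7 in the HORMAD1 line (SD, n = 3 each).

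CCN2 and ANKRD1 each turned on 1 library. CCN2 (chromosome 6, 131948176 to 131951373, minus strand) had 34.87, 28.59 and 56.48 CPM in the double line, 119.3, 33.36 and 36.51 in the HORMAD1 line, 40.62, 42.79 and 40.55 in the CT83 line and 36.1, 39.86 and 44.24 in control. The first HORMAD1 library held the highest value, and the other two lay inside the range of the double line. The fitted log2 fold change of CCN2 in the double line against the HORMAD1 line was -0.67 with all libraries and 0.183 without HORMAD1 replicate 1, and in the HORMAD1 line against control it was 0.664 and -0.191 without that library. ANKRD1 (chromosome 10, 90912096 to 90921276, minus strand) had 1.15, 1.23 and 9.26 CPM in the double line, 1.48, 2.22 and 2.55 in the HORMAD1 line, 0.343, 0.778 and 2.20 in the CT83 line and 2.503, 2.448 and 1.432 in control. Its log2 fold change in the double line against control was 0.832, and without double replicate 3 it was -0.838. Their spreads within lines were among the widest of all genes, an SD of 1.02 on the log2 scale for ANKRD1 (percentile 99.6) and 0.575 for CCN2 (percentile 94.8), against a median of 0.185 over all genes tested.

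**Figure D2:**
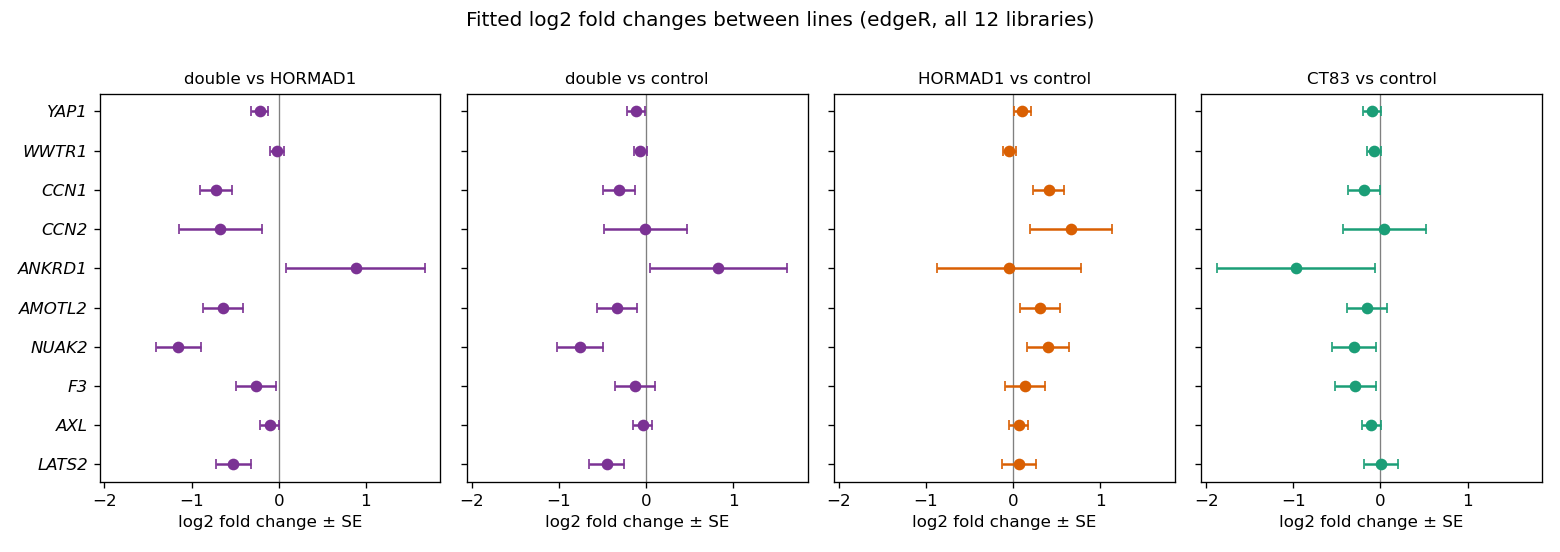
Fitted log2 fold changes ± SE (x axis) of the 10 genes (y axis) in 4 comparisons, from edgeR over all 12 libraries. In the double line against the HORMAD1 line 9 of 10 points lie left of 0, NUAK2 furthest at -1.15, and the error bars of ANKRD1 and CCN2 are the widest.

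Against control, the single lines lay to either side. In the HORMAD1 line the median of the 10 log2 fold changes was 0.121 (0.00518 over all genes), with 8 above 0. CCN1, AMOTL2 and F3 were higher in every HORMAD1 library than in every control library, where 4.25% of all genes were. CCN1 averaged 250.6 ± 51.1 CPM with HORMAD1, against 188.9 ± 10.8 CPM in control (SD, n = 3 each), with a log2 fold change of 0.41 (SE 0.18) and an edgeR adjusted p of 1.0. In the CT83 line the median was -0.131 (0.00599 over all genes), with 8 below 0, every one of the 10 overlapping control (5.73% of all genes were lower and 4.73% higher without overlap), and a smallest adjusted p of 0.984 (edgeR).

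In the double line against control, 9 of 10 were below 0, with a median of -0.119 (-0.00146 over all genes). NUAK2 had 4.41 ± 1.46 CPM in the double line and 7.43 ± 2.23 CPM in control (SD, n = 3 each), and its fitted change was -0.76 on the log2 scale (SE 0.263, edgeR adjusted p = 0.797). NUAK2 and WWTR1 were lower in every double library than in every control library, as were 7.83% of all genes. These 3 comparisons share the control libraries.

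Between the single lines, all 10 log2 fold changes of HORMAD1 against CT83 were above 0, with a median of 0.444 (-0.00319 over all genes) and a smallest adjusted p of 0.978 (edgeR). CCN1, NUAK2 and YAP1 did not overlap, where 4.2% of all genes were higher without overlap. F3 shows what 1 library did: it had 550.2, 521.3 and 546.1 CPM in the HORMAD1 line and 314.4, 297.0 and 595.3 CPM in the CT83 line, so that CT83 replicate 3 exceeded every HORMAD1 library. Its log2 fold change was 0.423 with an edgeR adjusted p of 0.978, and without CT83 replicate 3 it was 0.819 with an adjusted p of 0.025, where 0.0189% of all genes were called. The median of the double line against the CT83 line was -0.0339. For the interaction the median was -0.304 and the smallest adjusted p 0.841 (edgeR). Without control replicate 2, CT83 replicate 3 and HORMAD1 replicate 1 that median was -0.0289. CT83 itself averaged 101.9 CPM in the double line and 523.4 CPM in the CT83 line. The interaction and the double line against CT83 are therefore not at a matched CT83 level, and its part in them was not tested.

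Ordered by line means, the HORMAD1 line was highest for 8 of the 10 genes, as it was for 21.5% of all genes. The double line was lowest for 6 (31.6% of all genes) and the CT83 line for the other 4 (27.6%). Without control replicate 2, CT83 replicate 3 and HORMAD1 replicate 1, the HORMAD1 line was highest for 6 (27.9%), the double line lowest for 2 (20.7%) and the CT83 line lowest for 7 (30.9%). The low end of the order, the double line or the CT83 line, thus turned on which libraries were kept.

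Within lines, most of the 10 genes were highest in the same library. Double replicate 3 held the highest value of its line for 9 of the 10 genes (35.4% of all genes), CT83 replicate 3 for 8 (41.1%) and HORMAD1 replicate 1 for 7 (42.9%), while control replicate 2 did so for 4 (37.4%). The libraries also differed along transcript length: the slope of log2 CPM per doubling of transcript length was -0.0443, -0.026 and 0.00423 in the double line, 0.0557, -0.0112 and -0.0238 in the HORMAD1 line, -0.0156, 0.000807 and 0.0504 in the CT83 line and -0.00545, 0.0274 and -0.0124 in control. The library with the most positive slope of its line was double 3, HORMAD1 1, CT83 3 and control 2. CCN1, AMOTL2 and LATS2 were highest in that library in 4 of 4 lines, as were 8.48% of all genes. In at least 3 lines, 6 of the 10 genes were so, but the share of all genes by that rule was not computed. WWTR1 was highest in that library in 1 line. The part of the length trend in the differences between lines was not tested. With that trend as an offset, 0 of the 10 were called and the log2 fold changes in the double line against the HORMAD1 line were -0.73 for CCN1 and -1.13 for NUAK2.

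Leaving libraries out along this trend changed the calls. Without control replicate 2, CT83 replicate 3 and HORMAD1 replicate 1, edgeR called NUAK2 in the double line against the HORMAD1 line (adjusted p = 0.0184), where it called 2.16% of all genes. In the same setting F3 was called in HORMAD1 against CT83 (5.92% of all genes) and for any difference (3.82%). These 3 libraries had the most positive slope of their lines, and the trend was known from earlier results of these data. Leaving them out can narrow the spread within lines by construction. Calls over all genes rose from 7 to 339 in the double line against the HORMAD1 line. The calls of NUAK2 and F3 in this setting are therefore given as values only. A further setting, added after the values were seen, left out the library with the most positive slope of each line and kept 2 per line. It called 6 of the 10 in the double line against the HORMAD1 line (4.18% of all genes), 6 in HORMAD1 against CT83 (10.5%), 5 in CT83 against control (2.35%), 3 in the double line against control (0.385%), 1 in the double line against CT83 (1.51%), 1 for the interaction (0.462%) and 7 for any difference (7.73%). The libraries it removed held the highest value in 4 of 4 lines for CCN1, AMOTL2 and LATS2, as for 8.48% of all genes. The setting thus narrows the spread within lines by its own construction, and its counts are given as values only. In that setting the HORMAD1 line was highest for 7 genes (26.4%), and the double line lowest for 6 (24.0%) and the CT83 line for 4 (29.6%).

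**Figure D3:**
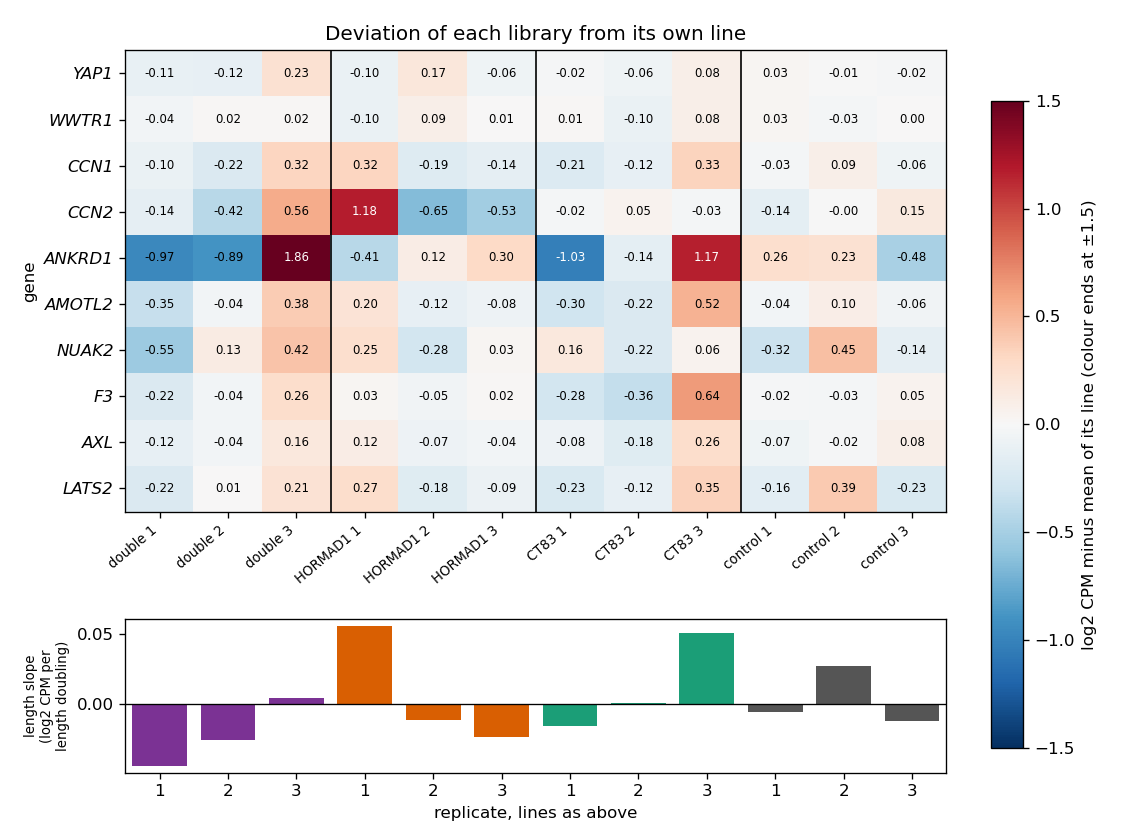
Each cell gives the log2 CPM of a gene in a library minus the mean of its line (colour, ending at ±1.5), and the bars give the slope of log2 CPM per doubling of transcript length in the same libraries. Double 3, HORMAD1 1 and CT83 3 are mostly red for the target genes, and WWTR1 is pale throughout.

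**Figure D4:**
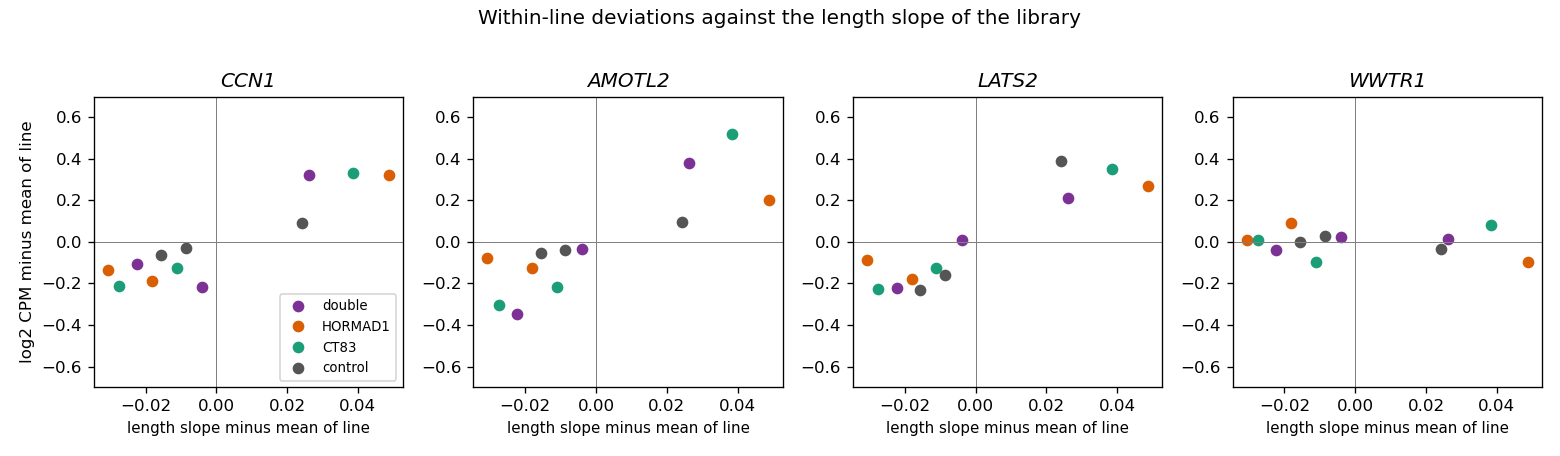
Deviation of log2 CPM from the line mean (y axis) against deviation of the length slope from the line mean (x axis) for CCN1, AMOTL2, LATS2 and WWTR1, 1 point per library. The 4 libraries with the most positive slope of their line, 1 per line, stand apart at the right once line means are removed. The other 8 form a cluster. CCN1, AMOTL2 and LATS2 are the members highest in that library in 4 of 4 lines, so their place above 0 there is fixed by that. WWTR1 was highest there in 1 line.

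The genes whose profile over the 12 libraries was most like the mean standardised profile of the 10 were VCL (Pearson r = 0.973), which encodes the focal adhesion protein vinculin, PHLDB2 (0.943), CNN2 (0.941), which encodes a calponin, IFFO2 (0.937) and PDGFB (0.931). With line means removed they were CACTIN-AS1 (0.99), TJP1 (0.974), VCL (0.973), SMCHD1 (0.971) and MICAL2 (0.966). These coefficients are descriptions over 12 libraries that share the length trend.

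Of the upstream pathway, 22 kinases, scaffolds, inhibitors and TEAD factors were listed and all 22 were tested, with 0 called by edgeR in either direction in any comparison (4 at an unadjusted p under 0.05 in the double line against HORMAD1, where 7.59% of all genes were). Their median log2 fold change in the double line against the HORMAD1 line was -0.169 (-0.00938 over all genes). WWC2, a scaffold that activates LATS, had 39.31, 41.83 and 47.72 CPM in the double line, below all libraries of the HORMAD1 line at 52.46, 53.61 and 49.85 CPM, as were 5.91% of all genes (log2 fold change -0.28, edgeR adjusted p = 0.471). STK3, the Hippo kinase MST2, had 46.32, 42.79 and 41.17 CPM in the double line and 45.18, 53.61 and 56.08 CPM in the HORMAD1 line, which overlapped. FRMD6, a FERM protein of the pathway, had 126.5, 130.2 and 150.9 CPM in the double line and 106.3, 130.6 and 139.4 CPM in the HORMAD1 line, which also overlapped. AMOT, a YAP inhibitor of the angiomotin family, was barely detected, at 0 to 20 counts per library. It lay at 0 to 0.403 CPM in the double line and 0.809 to 1.93 CPM in the HORMAD1 line. These did not overlap, as for 5.91% of all genes in that direction (log2 fold change -2.27, edgeR adjusted p = 0.387).

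Of 20 further YAP and TAZ targets, 19 were tested (FOXF2 was not) and edgeR called 0 in any comparison. In the double line against HORMAD1, 4 had an unadjusted p under 0.05, beside the same 7.59% of all genes. Of these 4, 3 were lower in the double line and the other was higher. The median log2 fold change of the 19 in that comparison was -0.166. EDN1, the peptide endothelin 1, had 6.92, 7.98 and 9.66 CPM in the double line, below all HORMAD1 libraries at 10.32, 14.95 and 15.18 CPM, again as were 5.91% of all genes (log2 fold change -0.72, edgeR adjusted p = 0.306). IGFBP3, a binding protein of insulin-like growth factors, had 17.5, 23.9 and 34.2 CPM in the double line and 28.7, 47.9 and 64.5 CPM in the HORMAD1 line, which overlapped. KRT34, a hair keratin, was low throughout, at 6 to 24 counts per library. It lay at 0.702 to 0.805 CPM in the double line and 0.405 to 2.02 CPM in the HORMAD1 line, which overlapped. In control it lay at 1.57 to 1.82 CPM, above all double libraries (log2 fold change -1.13, edgeR adjusted p = 0.858). Against control, 7.83% of all genes were lower in the double line without overlap.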

How the data were processed

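The 12 HMLE libraries hold polyadenylated RNA to which ERCC spike-in RNA had been added, per the labels' protocols. The tools named per the submitters' processing notes are STAR 2.7.5c, Trimmomatic 0.39, Picard and SAMtools, and both hg38 and hg19 are listed. The counting tool, the annotation and the strand setting were not given in the sources used here, neither labels nor headers. The authors deposited expected counts (estimated counts) per gene in 61533 entries, with 0 ERCC entries among them. Rounding them to whole numbers changed 6.755% of the values. Coordinates and transcript lengths come from GENCODE 29.

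In R 4.3.3, genes were filtered with edgeR 4.0.16 (filterByExpr, minimum count 10), scaled by TMM and fitted with a robust quasi-likelihood model over all libraries, 1 mean per line, 8 residual degrees of freedom, with Benjamini-Hochberg adjustment over 15616 genes. CPM are TMM-normalised, and log2 CPM used a prior count of 2. No replicate pair agreed within sampling noise (chi-square per degree of freedom 2.54 to 26.41). The replicate numbers were not treated as pairs in the main fit: 6 of 18 same-number correlations of deviations were over 0.1. They ranged from -0.354 to 0.351. Correlations between different numbers were not computed, so these values cannot show whether the numbers pair the libraries. In a simulation of the double line against control (15438 genes), 40.3%, 88.1% and 98.5% of genes changed 1.5-fold, 2-fold and 4-fold were recovered. In it, 8 unchanged genes were called. The changed genes were drawn from those with a mean log2 CPM above 2. Counts were drawn independently for each gene and library, without the length trend that the libraries share. The shares recovered are therefore not a recovery rate for the 10 genes in these data. Alternatives used DESeq2 1.42.0, limma-voom (limma 3.58.1), other scalings, filters and thresholds, fits of only the lines compared, a replicate block, a length offset and libraries left out, 24 settings beside the main one, of which 1 was added after the values were seen.

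The members and lists were chosen with earlier results of these data known. From the 2 pathway lists, the 4 genes each with the smallest p for any difference among lines were named, except 1 that is not reported here, and likeness was Pearson r to the mean standardised profile.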

Additional observations from a re-analysis of the deposited data

How the results depend on the processing

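None of the 10 genes was called in the main fit. The replicate block, DESeq2 size factors, library size, limma-voom, the CPM filter, the length offset, fits of only the lines compared and an adjusted p under 0.1 each called 0 of the 10 genes in every comparison they could be run on. In the double line against the HORMAD1 line, 1 gene was called with no low-count filter, 2 by DESeq2, 1 without the 3 length-trend libraries (control 2, CT83 3, HORMAD1 1) and 6 without the library with the most positive slope of each line. In HORMAD1 against CT83, 1 was called without those 3 libraries, 0 to 1 with 1 library left out and 6 without those 4 libraries. For any difference, the counts were 1 with no filter, 1 without those 3 and 7 without those 4. Leaving out those 4 also called 5 in CT83 against control, 3 in the double line against control, 1 in the double line against CT83 (F3, log2 fold change 0.416, against -0.024 without CT83 replicate 2) and 1 for the interaction. The interaction median was -0.0289 without those 3 libraries. With 1 library left out, medians ranged from -0.415 to -0.0506 in the double line against control and from -0.71 to -0.265 in the double line against the HORMAD1 line (the lowest of each without double replicate 3), from -0.285 (without CT83 replicate 3) to -0.0495 in CT83 against control, from 0.287 to 0.668 in HORMAD1 against CT83, from 0.118 to 0.211 in HORMAD1 against control, from -0.222 to 0.0572 in the double line against CT83, above 0 without CT83 replicate 3, double replicate 1 or double replicate 2, and from -0.441 to -0.0922 (without HORMAD1 replicate 1) for the interaction. The number of all genes called ranged widely over settings, from 0 to 652 (7 in the main fit) in the double line against the HORMAD1 line, from 1 to 1642 (2) in HORMAD1 against CT83, from 1 to 60 (4) in the double line against control, from 0 to 235 (1) in the double line against CT83, from 0 to 367 (1) in CT83 against control, from 0 to 11 (1) in HORMAD1 against control, from 0 to 72 (0) for the interaction and from 1 to 1206 (7) for any difference.

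A correlation of each gene with the length slope, line means removed, was planned because earlier results of these data had shown the length trend. It was run over every ordering of libraries within lines. In an exact two-sided permutation test, it passed an adjusted p under 0.05 for 3 of the 10 genes by Pearson (CCN1, AMOTL2 and LATS2). By Spearman it did so for 2 (AMOTL2 and LATS2). The test and its adjustment covered the 10 genes alone, so no share of all genes stands beside these counts. The slope was itself fitted over the genes tested, and whether 3 of 10 is unusual was not tested. With line means removed, the slopes fall into the 4 most positive libraries and 8 others, so no pooled coefficient is given. Within the other 8, 0 of the 10 passed, but 16 orderings cannot give a p below 0.125. ANKRD1 and NUAK2 had few counts, which limits their precision.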
